A study of Homo sapiens with 6 samples.

Results

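The translation factor genes of T47D cells were examined as 61 of the 17891 genes measured: all genes whose symbol begins with EIF and a digit from 1 to 6 or with EEF and a digit 1 or 2, leaving out the EIF2AK kinases and the EEF1AKMT and EEF2KMT methyltransferases. T47D is an established human luminal breast cancer line. The PRL cells (3 libraries) carried a pLVX-puro lentivirus with PRL, the gene of the hormone prolactin, and the control cells (3 libraries) the same lentivirus left empty. All cells were grown for 2 days in RPMI1640 with serum before RNA extraction. The series calls the 3 libraries of each group biological replicates, and whether each line was a pool or 1 clone is not given in the sources used here.

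Initiation factors load the small ribosomal subunit with initiator tRNA, bring it to the capped 5′ end of an mRNA and move it to the start codon. Elongation factors then deliver charged tRNAs (eEF1A, recharged with GTP by the eEF1B subunits) and shift the ribosome by 1 codon at a time (eEF2). Growth signals act on this machinery through the cap-binding complex eIF4F and its repressors and through the guanine exchange factor eIF2B. In breast cancer, the cap-binding protein eIF4E and its helicase partner eIF4A are among the best studied of these proteins.

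Libraries held 16211146 to 17402348 estimated counts, and levels are given as CPM, counts scaled to a common library size with edgeR's trimmed mean method (TMM). Counts of PRL separated the groups as labelled, with 8277, 8097 and 7789 counts in the PRL libraries against 3, 3 and 1 in the control libraries. The mean chi-square per gene between libraries of 1 group was at most 2.20 for PRL libraries and at most 24.8 for control libraries. Ribosomal protein genes (87) took 10.5 ± 0.291% of counts in PRL cells and 16.9 ± 1.67% in control cells (SD, n = 3 each). All 9 luminal markers passed the filter on low counts, with summed levels of 15712 to 16194 CPM in PRL libraries and 19965 to 26025 CPM in control libraries, and 4 rose and 4 fell, among them CDH1 (log2 fold change 0.68), PGR (0.85) and KRT18 (-0.73). The 6 basal or mesenchymal markers summed to 7.37 to 8.78 CPM in PRL libraries and 3.55 to 6.50 CPM in control libraries, with KRT5, KRT14 and CDH2 under the level of 3 counts on average and TP63 (1.25), KRT17 (0.85) and VIM (-0.21, not called) measurable. The 7 stromal or immune markers summed to 96.2 to 97.4 CPM in PRL libraries and 62.0 to 81.3 CPM in control libraries, of which most was COL1A1 (0.51). Log2 fold changes were 2.09 for CD68, 0.97 for CD3E and -1.01 for ACTA2, and PECAM1 and PTPRC were not called. COL3A1 did not pass the filter on low counts and was not tested. The part that these differences have in the results was not tested.

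Most translation factor transcripts were lower in PRL cells. Of the 59 members that passed the filter on low counts (EIF1AY and EIF2S3B did not), 42 fell, 5 rose and 12 did not pass an adjusted p of 0.05 in edgeR's quasi-likelihood test with Benjamini-Hochberg adjustment over all 14076 tested genes. The 47 members that changed were 79.7% of those tested, where 62.9% of all tested genes changed. The lower members were 71.2% of those tested, where 30.5% of all tested genes fell, and the higher members were 8.47%, where 32.4% of all tested genes rose. Their median log2 fold change of PRL over control was -0.47, and that of all tested genes was 0.0094. Most changes were small: 7 members fell and 3 rose at least 2-fold, where 5.29% of all tested genes fell and 10.6% rose that far. The median member stood at -0.50, -0.48 and -0.47 log2 units from the mean of the controls in PRL libraries 1, 2 and 3, and at 0.078, -0.080 and -0.024 in control libraries 1, 2 and 3. In each PRL library 52 of the 59 lay below that mean. For 45 members every PRL library lay below every control library, as for 33.5% of all tested genes, and for 5 every PRL library lay above, as for 35.9% of all tested genes. Groups without overlap were thus 84.7% of members against 69.5% of all tested genes. The median coefficient of variation of a member was 2.56% among PRL libraries and 11.1% among control libraries. In bulk RNA, fewer cells of a kind and less RNA per cell cannot be told apart. The 61 genes together took 2.36 ± 0.00707% of counts in PRL cells and 2.92 ± 0.130% in control cells (SD, n = 3 each).

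**Figure D1:**
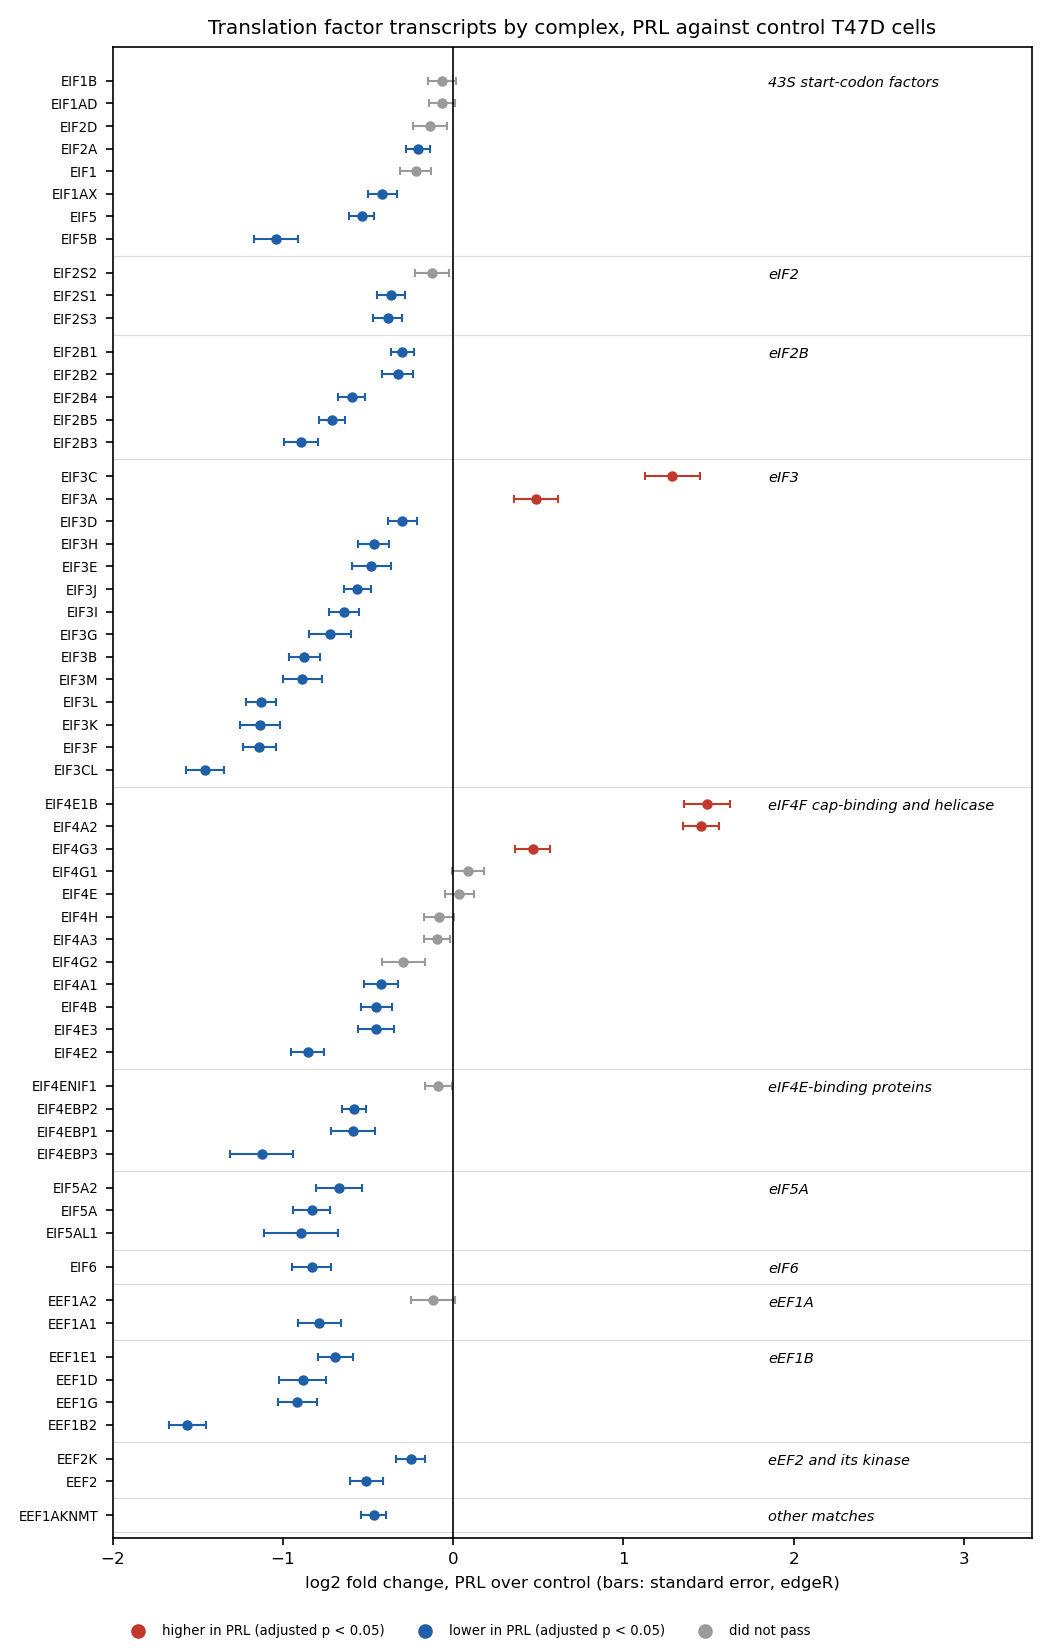
Log2 fold change of PRL over control (x axis, edgeR, bars show the standard error) for the 59 tested translation factor genes, grouped by complex and coloured by call. Reads of EIF3C and EIF3CL cannot be fully told apart, and summed the pair fell (-0.55). Points left of 0 are lower in PRL cells; the 5 members to the right past the threshold are EIF3C, EIF3A, EIF4E1B, EIF4A2 and EIF4G3, while every tested subunit of eIF2B and eEF1B lies to the left; on the TPM scale EIF2B1 and EIF2B2 lie to the right.

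The size of the shift depended on how libraries were scaled to each other, and the calls of many single members with it. TMM factors were 1.08 to 1.11 in PRL libraries and 0.848 to 0.955 in control libraries. Scaled by library totals, the median of all tested genes was 0.26, and 31 members were lower and 7 higher, where 72.8% of all called genes were higher. On log2(TPM + 1) all tested genes had a median of 0.39, and 19 members were lower and 16 higher, where 83.7% of all called genes were higher. Relative to the median of all genes, the median member stood at -0.48 with TMM, -0.47 with library totals and -0.41 on the TPM scale. Computing the TMM factors without ribosomal protein genes and without the members left 42 lower and 5 higher. Across all alternatives but the summing of 2 copies, 19 of the 42 lower members and all 5 higher members were called in the same direction: EEF1A1, EEF1B2, EEF1D, EEF1G, EIF2B3, EIF2B5, EIF3B, EIF3CL, EIF3F, EIF3G, EIF3I, EIF3K, EIF3L, EIF3M, EIF4E2, EIF4EBP3, EIF5A, EIF5B and EIF6 as lower, and EIF3A, EIF3C, EIF4A2, EIF4E1B and EIF4G3 as higher. Those alternatives do not bear on the split of reads between the similar genes EIF3C and EIF3CL, which summed fell (-0.55).

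**Figure D2:**
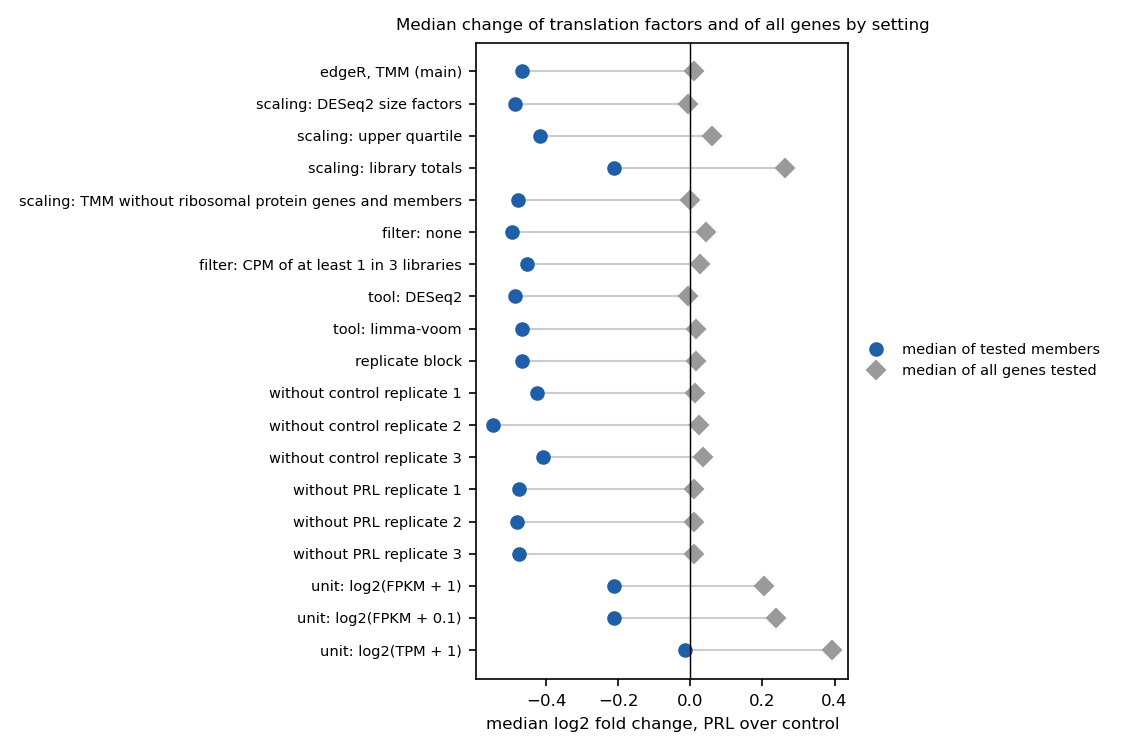
Median log2 fold change of PRL over control (x axis) of the tested members (circles) and of all tested genes (diamonds) under each way of scaling, filtering, testing and leaving out a library. The members' median lies left of that of all genes in every setting, by 0.48 with TMM, and both move right with library totals (-0.21 and 0.26), FPKM (-0.21 and 0.20 with a pseudocount of 1) and TPM (-0.015 and 0.39).

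Many mRNAs of the translation machinery begin with a C followed by a run of pyrimidines, a start known as a 5′ terminal oligopyrimidine tract that links their translation to growth signalling. The annotated starts of the members were therefore read, and a tract was counted where the first transcribed base was C and at least 4 bases that are each C or T followed on the transcribed strand. This definition was chosen with values of the data known. RefSeq start sequences on GRCh38.p14 were given for 51 of the 61 members, and 13 of these (25.5%) had a tract at a start, against 5.14% of 27305 RefSeq genes and 7.08% of 11462 tested genes with a start. The starts below show a tract in the tRNA-delivery factor EEF1A1 (chr6:73521013-73521037, minus strand), its exchange factor EEF1B2 (chr2:206159890-206159914, plus strand), the translocase EEF2 (chr19:3985444-3985468, minus strand), the eIF3 subunits EIF3F (chr11:7987332-7987356, plus strand) and EIF3K (chr19:38619183-38619207, plus strand), and EIF4A2 (chr3:186783572-186783596, plus strand). EEF1G (chr11:62573872-62573896, minus strand) and EIF4A1 (chr17:7572820-7572844, plus strand) are shown as members without one. Each line gives 5 bases before the annotated start and 20 from it, 5′ to 3′, with the tract in capitals.
EEF1A1: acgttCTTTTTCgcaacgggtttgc
EEF1B2: cgggtCCTTTTTCCTCTCTTCagcg
EEF2: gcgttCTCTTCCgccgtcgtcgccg
EIF3F: gcctcCTTCTTTCTCgacaagatgg
EIF3K: accacCTCTTCCTgttcccgtcctt
EIF4A2: gctgtCTTTTCagtcgggcgctgag
EEF1G: ggcttactttgcggcagcgccgaga
EIF4A1: tccgccctagtttctaaggatcatg
EEF1B2 also has an annotated start without a tract. Members with and without a tract had close medians, and the difference was not tested. Of the 12 tested members with a tract, 10 fell, 1 rose (EIF4A2) and 1 was not called (EIF2D), with a median log2 fold change of -0.48. Of the 37 tested members with a start but no tract, 25 fell, 3 rose and 9 were not called, with a median of -0.45. Among the other tested genes, ribosomal protein genes left out, the median was 0.0055 for 752 genes with a tract and 0.0092 for 10593 without. With ribosomal protein genes and members kept in, it was -0.048 for 812 genes with a tract, of which 248 rose and 305 fell. For the 10650 without a tract it was 0.0061, and 3440 rose and 3255 fell.

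Among the factors that place the ribosome on the start codon, EIF5B was the member that differed most. EIF5B, the GTPase that joins the large ribosomal subunit to the small one, had 127, 123 and 131 CPM in the PRL libraries, against 319.6, 255 and 212 CPM in the control libraries (log2 fold change -1.04, SE 0.13, adjusted p = 6.3e-05, edgeR). All PRL libraries lay below all controls, and its level was 2.06-fold lower in PRL cells. EIF5, the factor that triggers GTP hydrolysis on eIF2, fell (log2 fold change -0.54, adjusted p = 1.2e-04), as did EIF1AX, which holds the scanning ribosome open (-0.42, adjusted p = 0.0015), and EIF2A, an alternative carrier of initiator tRNA (-0.21, adjusted p = 0.026). EIF2A was no longer called without any 1 of the PRL libraries (adjusted p = 0.096 to 0.10, edgeR), with library totals its log2 fold change was 0.049, and on the FPKM and TPM scales it was called higher. On the TPM scale EIF1AX was also above 0 (0.039) and EIF5 was not called. EIF1AX was not called with library totals (-0.16) or with FPKM either.

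The start-codon guard EIF1 and its paralog EIF1B did not pass. EIF1 had 595, 605 and 645 CPM in the PRL libraries, against 789, 708 and 654 CPM in the control libraries (log2 fold change -0.22, SE 0.094, adjusted p = 0.059, edgeR). The PRL libraries all lay below the controls, the highest PRL library within a few percent of the lowest control. Without control library 3 EIF1 was called lower (-0.27, adjusted p = 0.016), as it was by DESeq2 on all libraries (-0.24, adjusted p = 0.024). On the TPM scale EIF1 was called higher (0.23). EIF1B had 28.2, 26.4 and 26.5 CPM in the PRL libraries, against 29.1, 26.8 and 29.1 CPM in the control libraries (log2 fold change -0.065, SE 0.082, adjusted p = 0.51, edgeR), and its groups overlapped. EIF1AD, an EIF1A-like protein, and EIF2D, a factor for reinitiation and recycling, stood at log2 fold changes of -0.067 and -0.14 and were not called. EIF1B and EIF1AD were called higher with FPKM at either pseudocount and with TPM, at 0.38 each on the TPM scale (adjusted p = 0.0053 for EIF1B and 0.0035 for EIF1AD, limma).

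Of the 3 tested subunits of eIF2, the complex that carries initiator tRNA to the ribosome, 2 fell in the TMM-scaled fit, and neither did so on the TPM scale, where their values were 0.090 for EIF2S1 and 0.072 for EIF2S3. Neither was called with library totals (-0.11 and -0.13) or with FPKM. In the TMM-scaled fit, 30.5% of all tested genes fell. EIF2S3, the GTP-binding gamma subunit, had 523, 522 and 538 CPM in the PRL libraries, against 745, 668 and 653 CPM in the control libraries (log2 fold change -0.38, SE 0.085, adjusted p = 0.0026, edgeR). The groups did not overlap. EIF2S1, the alpha subunit whose phosphorylation slows initiation, changed likewise (-0.37, adjusted p = 0.0026, edgeR), while EIF2S2, the beta subunit, averaged 311 ± 6.46 CPM in PRL cells and 339.9 ± 48.0 CPM in control cells (SD, n = 3 each) and was not called (log2 fold change -0.13, adjusted p = 0.29). On the TPM scale EIF2S2 was the subunit called, as higher (0.36, adjusted p = 4.8e-04, limma). EIF2S3 shares 18.1% of its stretches of 50 bases with its copy EIF2S3B in the GENCODE 29 transcripts, so reads of the pair cannot be fully told apart.

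All 5 subunits of eIF2B, the exchange factor that reloads eIF2 with GTP, were lower in PRL cells, with a median log2 fold change of -0.60, though on the TPM scale EIF2B1 and EIF2B2 stood at 0.15 and 0.13 and EIF2B4 was not called. EIF2B1 and EIF2B2 were also not called with library totals (-0.046 and -0.071) or with FPKM. In the TMM-scaled fit, 30.5% of all tested genes fell. The largest difference was in the catalytic-core subunit EIF2B3, which had 16.5, 17.1 and 17.1 CPM in the PRL libraries, against 35.4, 30.4 and 28.6 CPM in the control libraries (log2 fold change -0.89, SE 0.10, adjusted p = 3.1e-05, edgeR). No PRL library reached the lowest control. EIF2B5, the subunit with the exchange activity, averaged 129 ± 1.77 CPM in PRL cells and 212 ± 12.7 CPM in control cells (SD, n = 3 each; log2 fold change -0.71, SE 0.075, adjusted p = 2.2e-05, edgeR), and EIF2B4 was close to it (log2 fold change -0.60, adjusted p = 9.0e-05). The differences of EIF2B1 (-0.30, adjusted p = 0.0029) and EIF2B2 (-0.33, adjusted p = 0.010) were smaller.

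All 14 measured genes of eIF3, the scaffold that binds the small ribosomal subunit and the mRNA, passed the threshold. Among them 12 fell and 2 rose, and the median log2 fold change was -0.68. In the whole set of tested genes 62.9% passed, 30.5% as lower and 32.4% as higher. The calls of EIF3C (higher) and EIF3CL (lower) are not separate results, since reads of the 2 copies cannot be fully told apart. The largest falls apart from EIF3CL were in EIF3F (-1.14), EIF3K (-1.13) and EIF3L (-1.13), of which EIF3K and EIF3L form a peripheral pair in the complex. EIF3L averaged 222 ± 6.85 CPM in PRL cells and 488 ± 45.0 CPM in control cells (SD, n = 3 each; log2 fold change -1.13, SE 0.088, adjusted p = 3.0e-06, edgeR). EIF3F, one of a pair of subunits with an MPN domain, averaged 136 ± 5.99 CPM in PRL cells and 301 ± 37.5 CPM in control cells (log2 fold change -1.14, SE 0.10, adjusted p = 5.5e-06, edgeR), and EIF3K averaged 203 ± 5.11 CPM in PRL cells and 444 ± 81.7 CPM in control cells (log2 fold change -1.13, SE 0.12, adjusted p = 2.2e-05, edgeR). The other MPN subunit, EIF3H, fell less (-0.47, adjusted p = 0.0011).

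Further subunits also fell: EIF3M (-0.89), EIF3B (-0.87), EIF3G (-0.72) and EIF3I (-0.64) all had adjusted p-values of 4.6e-04 or less (edgeR). Smaller falls were measured for the loosely bound subunit EIF3J (-0.56, adjusted p = 1.2e-04), EIF3E (-0.48, adjusted p = 0.0042) and the cap-binding subunit EIF3D (-0.30, adjusted p = 0.011). EIF3D was not called without PRL library 1 (adjusted p = 0.057), and on the TPM scale EIF3D and EIF3E stood at 0.16 and 0.033. Neither was called with library totals (-0.041 and -0.22) or with FPKM. Reads of EIF3L could include those of an annotated overlapping gene on the same strand, AL022311.1, which covers 41.1% of its exon bases.

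EIF3A, the largest scaffold subunit, went the other way. Its level was 150.4, 143 and 141 CPM in the PRL libraries, against 89.8, 91.3 and 129 CPM in the control libraries (log2 fold change 0.49, SE 0.13, adjusted p = 0.0068, edgeR). The groups did not overlap, and control library 3 stood nearer to the PRL libraries than the other two controls did.

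EIF3C and EIF3CL, a pair of similar genes on chromosome 16 that encode the same scaffold subunit, moved in opposite directions. EIF3C (chr16:28688558-28735730, plus strand, GRCh38) had 456, 464 and 488 CPM in the PRL libraries, against 153, 169 and 255 CPM in the control libraries (log2 fold change 1.29, SE 0.16, adjusted p = 7.1e-05, edgeR). EIF3CL (chr16:28379579-28403879, minus strand) had 403, 386 and 361 CPM in the PRL libraries, against 1224, 1004 and 933 CPM in the control libraries (log2 fold change -1.46, SE 0.11, adjusted p = 2.8e-06, edgeR). In the GENCODE 29 transcripts 97.2% of the stretches of 50 bases of EIF3CL also occur in EIF3C, and 42.3% of those of EIF3C in EIF3CL, so the split of reads between the copies is uncertain and neither value can be read alone. Summed, which was added after seeing the data, the pair had 858, 849 and 849 CPM in the PRL libraries and 1375, 1172 and 1188 CPM in the control libraries (log2 fold change -0.55, SE 0.093, adjusted p = 5.1e-04, edgeR). The sum fell, as most other subunits did. The 14 genes of eIF3 together had 3372 ± 32.0 TPM in PRL cells and 4252 ± 85.9 TPM in control cells (SD, n = 3 each).

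**Figure D3:**
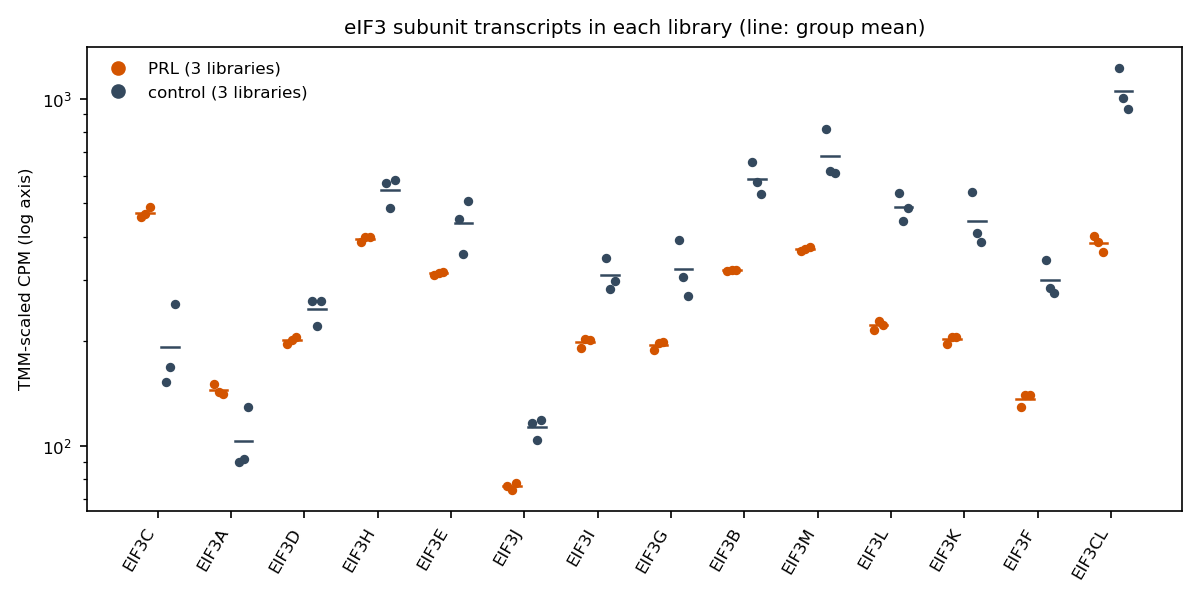
TMM-scaled CPM (log axis) of the 14 eIF3 genes in each of the 3 PRL and 3 control libraries, with the group mean as a line, ordered from the largest rise to the largest fall. The PRL libraries lie above the controls for EIF3C and EIF3A and below them for the other 12; EIF3C and EIF3CL share 97.2% of the stretches of 50 bases of EIF3CL and 42.3% of those of EIF3C, and on the TPM scale EIF3D and EIF3E stand above 0 (0.16 and 0.033).

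In the cap-binding complex eIF4F and its helpers, 3 of 12 members rose, 4 fell and 5 were not called, with a median log2 fold change of -0.090. The 25% that rose and the 33.3% that fell were near the 32.4% and 30.5% of all tested genes that did. The largest rise of an abundant member was that of EIF4A2, a DEAD-box RNA helicase that is part of eIF4F and also binds the CCR4-NOT deadenylase. EIF4A2 (NCBI gene 1974, chr3:186783205-186789900, plus strand) had 1117, 1128 and 1129.7 CPM in the PRL libraries, against 378, 377 and 476 CPM in the control libraries (log2 fold change 1.45, SE 0.11, adjusted p = 2.0e-06, edgeR). Its PRL libraries differed from each other by about a percent and lay 2.74-fold above the controls. EIF4A1 (chr17:7572706-7579005, plus strand), the main helicase of eIF4F, had 772, 789.7 and 776 CPM in the PRL libraries, against 1163, 926 and 1047 CPM in the control libraries (log2 fold change -0.42, SE 0.10, adjusted p = 0.0036, edgeR), so that it fell where EIF4A2 rose, although on the TPM scale EIF4A1 stood at 0.036. With library totals and with FPKM EIF4A1 was not called (-0.16 in each). EIF4A1 and EIF4A2 share no stretch of 50 bases in their GENCODE 29 transcripts. An annotated same-strand gene, AC016876.2, covers 41.1% of the exon bases of EIF4A1. EIF4A3, the helicase of the exon junction complex, averaged 169 ± 0.870 CPM in PRL cells and 181 ± 12.1 CPM in control cells (SD, n = 3 each) and was not called (log2 fold change -0.10, adjusted p = 0.28) except as higher on the TPM scale (0.33).

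Per length, EIF4A2 moved up in the order of the members. At 1107 ± 19.3 TPM in PRL cells and 298 ± 64.5 TPM in control cells (SD, n = 3 each), it came next after EEF1G, EEF1A1 and EEF1D in PRL cells. EIF4A1 had 824 ± 18.4 TPM in PRL cells and 805 ± 57.0 TPM in control cells, a difference within the spread of the controls. EIF4A2 transcripts were thus above those of EIF4A1 in every PRL library and below them in every control library. The 12 genes of the group together had 3264 ± 69.6 TPM in PRL cells and 2258 ± 269 TPM in control cells.

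**Figure D4:**
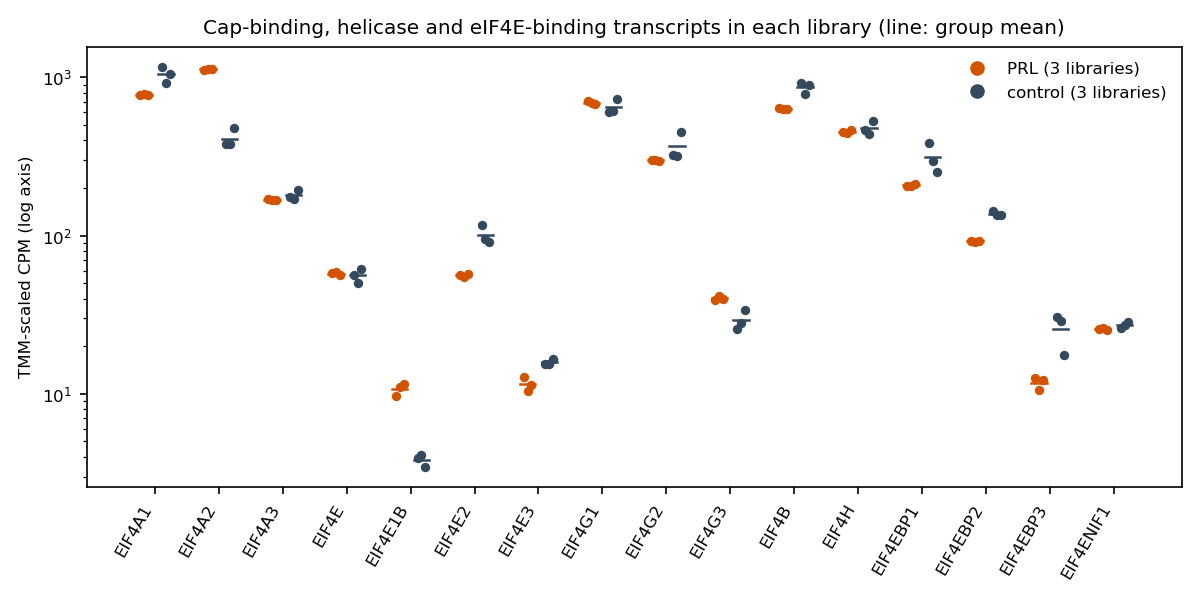
TMM-scaled CPM (log axis) of the cap-binding and helicase genes and the eIF4E-binding proteins in each of the 3 PRL and 3 control libraries, with the group mean as a line. EIF4A2, EIF4E1B and EIF4G3 lie above the controls in every PRL library, EIF4E and EIF4G1 overlap, and EIF4E2 and the EIF4EBP genes lie below.

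The cap-binding proteins themselves split by family member. EIF4E, the main cap-binding protein, had 57.8, 58.4 and 56.4 CPM in the PRL libraries, against 56.4, 50.4 and 61.8 CPM in the control libraries (log2 fold change 0.035, SE 0.086, adjusted p = 0.74, edgeR), and its groups overlapped. It was called higher with library totals (0.29, adjusted p = 0.023) and on the TPM scale (0.43, adjusted p = 0.013). EIF4E2, a cap-binding protein known for repressing translation, had 56.2, 54.8 and 57.0 CPM in the PRL libraries, against 117, 95.6 and 91.5 CPM in the control libraries (log2 fold change -0.86, SE 0.10, adjusted p = 3.6e-05, edgeR). EIF4E3, a further cap-binding paralog, had 12.8, 10.5 and 11.4 CPM in the PRL libraries, against 15.4, 15.5 and 16.5 CPM in the control libraries (log2 fold change -0.45, SE 0.11, adjusted p = 0.0038, edgeR). The groups of EIF4E2 and EIF4E3 did not overlap, but EIF4E3 was not called with library totals (-0.20), FPKM or TPM. EIF4E1B (chr5:176630618-176646641, plus strand), a close homologue of EIF4E known mainly from vertebrate oocytes, was higher at a low level: it had 9.69, 11.0 and 11.5 CPM in the PRL libraries, against 3.93, 4.08 and 3.43 CPM in the control libraries (log2 fold change 1.49, SE 0.14, adjusted p = 9.1e-06, edgeR). Its level in PRL cells was 2.81-fold that in control cells. Per length it averaged 10.0 ± 0.643 TPM in PRL cells and 2.60 ± 0.301 TPM in control cells (SD, n = 3 each), where EIF4E averaged 9.81 ± 0.298 TPM in PRL cells and 7.08 ± 1.08 TPM in control cells.

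Of the eIF4G scaffolds, EIF4G3 rose while EIF4G1 and EIF4G2 were not called. EIF4G3 had 39.4, 41.5 and 39.7 CPM in the PRL libraries, against 25.6, 28.0 and 33.6 CPM in the control libraries (log2 fold change 0.47, SE 0.10, adjusted p = 0.0024, edgeR), with no overlap. EIF4G1, the main scaffold, had 705, 685 and 679.6 CPM in the PRL libraries, against 608, 614 and 725 CPM in the control libraries (log2 fold change 0.088, SE 0.093, adjusted p = 0.43, edgeR). EIF4G2, a shorter family member without the eIF4E-binding site, had 299, 302 and 295 CPM in the PRL libraries, against 324, 321 and 454 CPM in the control libraries (log2 fold change -0.29, SE 0.13, adjusted p = 0.062, edgeR). Control library 3 was the highest of the controls for all 3 scaffold genes. EIF4G1 was called higher without it (log2 fold change 0.19, adjusted p = 0.041), with library totals (0.34, adjusted p = 0.011), with FPKM (0.33 at either pseudocount) and with TPM (0.53, adjusted p = 0.0019). EIF4G2 was called lower without control library 1 (-0.37, adjusted p = 0.030) or control library 2 (-0.38, adjusted p = 0.039). With all libraries EIF4G2 was called lower by DESeq2 (-0.31, adjusted p = 0.025) and by edgeR without a filter (-0.31, adjusted p = 0.046). EIF4B, which stimulates the helicase, fell (-0.45, adjusted p = 0.0014, edgeR), though its TPM value was -0.015, and its relative EIF4H was not called (-0.084, adjusted p = 0.44) except as higher on the TPM scale (0.37).

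Of the 4 transcripts that encode eIF4E-binding proteins, 3 fell, where 30.5% of all tested genes fell. EIF4ENIF1, which carries eIF4E to the nucleus and to P-bodies, was not called (-0.087, adjusted p = 0.36, edgeR) except as higher on the TPM scale (0.36). EIF4EBP1, the repressor best known as a target of mTOR, had 206, 207 and 210.5 CPM in the PRL libraries, against 388, 296 and 254 CPM in the control libraries (log2 fold change -0.59, SE 0.13, adjusted p = 0.0027, edgeR). EIF4EBP2 had 91.9, 91.1 and 92.4 CPM in the PRL libraries, against 143, 134 and 135 CPM in the control libraries (log2 fold change -0.58, SE 0.069, adjusted p = 4.8e-05, edgeR). The PRL libraries lay below the controls for both, and on the TPM scale neither was called. EIF4EBP3 had 12.5, 10.6 and 12.1 CPM in the PRL libraries, against 30.5, 28.9 and 17.5 CPM in the control libraries (log2 fold change -1.13, SE 0.19, adjusted p = 4.1e-04, edgeR). Control library 3 stood nearer to the PRL libraries than the other two controls did, and 73.4% of the exon bases of EIF4EBP3 are shared with the readthrough gene ANKHD1-EIF4EBP3 on the same strand, so reads of the readthrough cannot be told apart from its own.

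The balance between paralogs, and between EEF2 and its kinase EEF2K, was read as the ratio of their TPM values within a library. Such a ratio does not depend on scaling between libraries. Of 10 pairs compared, 8 had ratios that did not overlap between the groups. The count is near the 69.5% of all tested genes that did not overlap in CPM. That share is another measure, since CPM of single genes depends on scaling between libraries. No share was computed for ratios of other gene pairs. With 3 libraries against 3, the smallest two-sided p of the exact permutation test is 0.1 (0.125 after Benjamini-Hochberg adjustment over the 10 pairs), which all 8 reached. EIF4A2 over EIF4A1 was 1.35, 1.33 and 1.35 in the PRL libraries and 0.303, 0.379 and 0.423 in the control libraries, a difference of 1.88 on the log2 scale and the largest of the 10. EEF1A2 over EEF1A1 was 0.405 ± 0.0174 in PRL cells and 0.260 ± 0.0645 in control cells (log2 difference 0.67), and EIF4G3 over EIF4G1 was 0.0495 ± 0.00223 in PRL cells and 0.0369 ± 0.00300 in control cells (0.42; SD, n = 3 each). EIF4E2 over EIF4E was 8.73 ± 0.546 in PRL cells and 16.9 ± 3.01 in control cells (-0.94). The differences were -0.48 for EIF4E3 over EIF4E, -0.35 for EIF4G2 over EIF4G1, 0.28 for EEF2K over EEF2 and 0.17 for EIF5A2 over EIF5A. The ratios overlapped for EIF1B over EIF1 (0.15, exact permutation p = 0.3, adjusted 0.33) and for EIF4EBP2 over EIF4EBP1 (-0.016, exact permutation p = 0.8).

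**Figure D5:**
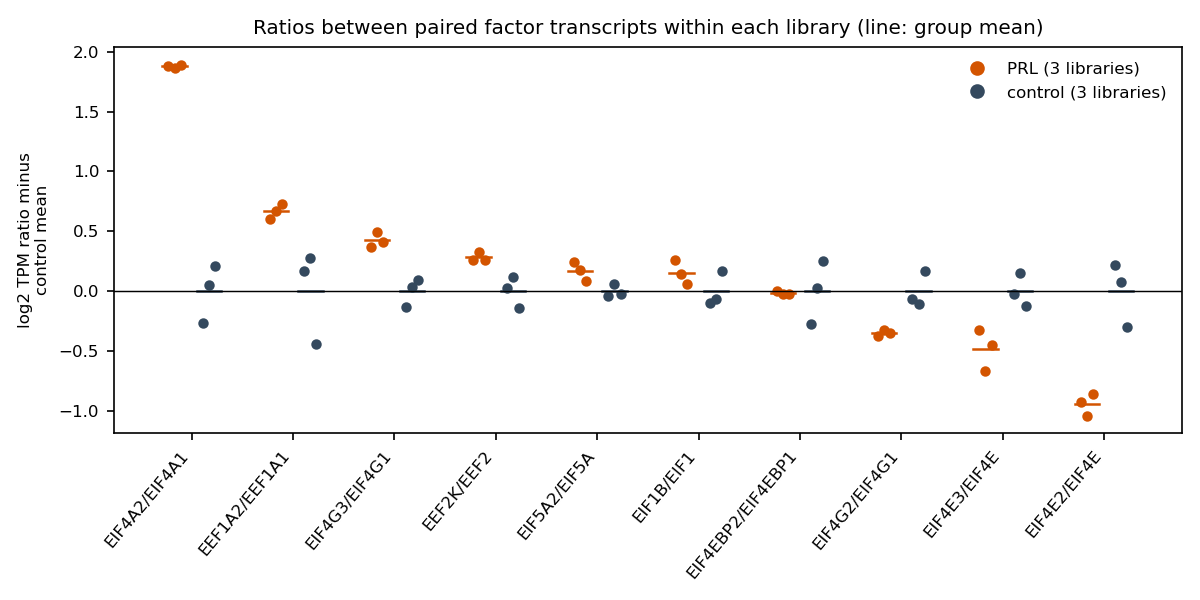
Log2 ratio of the TPM values of 10 pairs of related members in each of the 3 PRL and 3 control libraries, less the mean of the control libraries (0 on the axis). EIF4A2 over EIF4A1 lies highest, with a mean difference of 1.88, and EIF4E2 over EIF4E lowest, at -0.94; the groups overlap for EIF1B over EIF1 and EIF4EBP2 over EIF4EBP1.

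Both genes of eIF5A, the hypusine-bearing factor that helps ribosomes through stalling stretches, and its copy EIF5AL1 fell, with log2 fold changes from -0.89 to -0.67. EIF5A, the abundant form, had 603, 595 and 642 CPM in the PRL libraries, against 1226, 1117 and 933 CPM in the control libraries (log2 fold change -0.83, SE 0.11, adjusted p = 9.3e-05, edgeR). EIF5A2, a form known for amplification in cancers, had 7.08, 6.60 and 6.73 CPM in the PRL libraries, against 11.9, 11.6 and 9.10 CPM in the control libraries (log2 fold change -0.67, SE 0.13, adjusted p = 0.0013, edgeR). EIF5AL1, an intronless copy, had 2.38, 2.92 and 3.59 CPM in the PRL libraries, against 6.71, 5.67 and 4.18 CPM in the control libraries (log2 fold change -0.89, SE 0.22, adjusted p = 0.0047, edgeR). No PRL library of the 3 genes reached its lowest control. PRL libraries all lay below the controls for 33.5% of all tested genes, and 30.5% were called lower. EIF5A and EIF5AL1 share 14.5% of the stretches of 50 bases of EIF5A and 11.6% of those of EIF5AL1, so reads of the copy and of EIF5A cannot be fully told apart. On the TPM scale EIF5A was called and EIF5A2 and EIF5AL1 were not. EIF5A2 was also not called with FPKM at the pseudocount of 0.1 (adjusted p = 0.053, limma). EIF6, which keeps the large ribosomal subunit from joining too early, had 316, 328 and 338 CPM in the PRL libraries, against 689.6, 558 and 501 CPM in the control libraries (log2 fold change -0.83, SE 0.11, adjusted p = 1.2e-04, edgeR), again with no overlap.

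The elongation factors carried the most abundant transcripts of the family, and most of them fell. EEF1A1 (chr6:73515750-73523797, minus strand), the main tRNA-delivery factor, had 3511, 3575 and 3447 CPM in the PRL libraries, against 6459, 4980.5 and 6721 CPM in the control libraries (log2 fold change -0.79, SE 0.13, adjusted p = 3.8e-04, edgeR). EEF1A2, its paralog of muscle and neurons that is also found in breast tumours, had 676, 721 and 724 CPM in the PRL libraries, against 919, 763 and 624 CPM in the control libraries (log2 fold change -0.12, SE 0.13, adjusted p = 0.43, edgeR). EEF1A1 did not overlap between the groups and EEF1A2 did. On the TPM scale EEF1A2 was called higher (0.35), while EEF1A1 was lower on every scale.

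All 4 genes of the eEF1B exchange complex and its neighbours fell, with a median log2 fold change of -0.90. In the whole set of tested genes 30.5% fell. EEF1B2, EEF1D and EEF1G fell under every scaling tried. EEF1B2 (chr2:206159585-206162928, plus strand), a catalytic subunit, showed the largest fall of all members: it had 121, 131 and 135 CPM in the PRL libraries, against 441, 329.8 and 374 CPM in the control libraries (log2 fold change -1.56, SE 0.11, adjusted p = 1.4e-06, edgeR), 2.96-fold lower in PRL cells. EEF1G, the structural subunit and the highest member per length, averaged 2612 ± 76.4 CPM in PRL cells and 4928 ± 585 CPM in control cells (SD, n = 3 each; log2 fold change -0.92, SE 0.11, adjusted p = 6.5e-05, edgeR). EEF1D, the other catalytic subunit, averaged 733 ± 29.9 CPM in PRL cells and 1354 ± 287 CPM in control cells (log2 fold change -0.88, SE 0.14, adjusted p = 3.0e-04, edgeR). EEF1E1, a protein of the multi-tRNA synthetase complex that is named for its likeness to eEF1, averaged 27.3 ± 1.94 CPM in PRL cells and 44.1 ± 5.27 CPM in control cells (log2 fold change -0.69, SE 0.10, adjusted p = 1.9e-04, edgeR) and was not called on the TPM scale. An annotated same-strand gene, AP002990.1, covers 99.9% of the exon bases of EEF1G, and a gene on the opposite strand, AC067930.6, covers 31.2% of those of EEF1D. The use of strand in counting is not given in the sources used here.

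EEF2, the translocase, had 1852, 1859 and 1863 CPM in the PRL libraries, against 2749, 2436 and 2757 CPM in the control libraries (log2 fold change -0.51, SE 0.10, adjusted p = 9.3e-04, edgeR). EEF2K, the kinase that inactivates it, had 21.7, 22.9 and 21.3 CPM in the PRL libraries, against 27.0, 26.8 and 24.8 CPM in the control libraries (log2 fold change -0.25, SE 0.085, adjusted p = 0.025, edgeR). Neither gene overlapped between the groups, but on the TPM scale EEF2 was not called. EEF2K was not called without any 1 of the PRL libraries or without control library 1 (adjusted p = 0.054 to 0.11), and with library totals its log2 fold change was 0.0056. EEF1AKNMT, a methyltransferase of eEF1A that matched by its symbol, had 76.2, 76.8 and 73.1 CPM in the PRL libraries, against 110.0, 100.4 and 102 CPM in the control libraries (log2 fold change -0.47, SE 0.072, adjusted p = 2.7e-04, edgeR), with no overlap, and was not called on the TPM scale.

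In order of level per length, EEF1G, EEF1A1 and EEF1D led in both groups. EEF1G had 3379 ± 31.7 TPM in PRL cells and 4639 ± 265 TPM in control cells (SD, n = 3 each), EEF1A1 had 1833 ± 63.2 and 2308 ± 391 TPM, and EEF1D had 1324 ± 27.9 and 1837 ± 245 TPM. Next came EIF4A2, EEF2 and EIF5A in PRL cells, and EIF5A, EEF2 and EIF3K in control cells. The 61 genes together had 19259 ± 138 TPM in PRL cells and 21986 ± 647 TPM in control cells.

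The rest of the translation pathway, was read from 5 lists. Of 58 listed genes that are not members, all tested, 12 rose, 25 fell and 21 were not called, and their median log2 fold change was -0.16. The 63.8% that changed were close to the 62.9% of all tested genes. Of the 58, 20.7% rose, where 32.4% of all tested genes did, and 43.1% fell, where 30.5% did, and these differences were not tested. With library totals 19 rose and 14 fell, where 72.8% of all called genes were higher, and on the TPM scale 25 rose and 7 fell, where 83.7% were. The lists were chosen with earlier results of the data known.

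Among the 10 eIF2 kinases and phosphatase genes, 5 rose and 3 fell, where 32.4% of all tested genes rose and 30.5% fell. The 3 with the smallest adjusted p all rose. Whether the split within any of the lists differs from those shares was not tested. EIF2AK2, the double-stranded RNA sensor PKR that phosphorylates eIF2, averaged 162 ± 6.12 CPM in PRL cells and 48.7 ± 1.94 CPM in control cells (SD, n = 3 each; log2 fold change 1.73, SE 0.075, adjusted p = 4.0e-08, edgeR). The endoplasmic reticulum stress kinase EIF2AK3 (PERK) averaged 12.7 ± 1.13 CPM in PRL cells and 5.31 ± 1.14 CPM in control cells (log2 fold change 1.25, SE 0.16, adjusted p = 6.3e-05, edgeR). PPP1R15A, the stress-induced subunit of the phosphatase that restores eIF2, averaged 40.8 ± 1.56 CPM in PRL cells and 18.5 ± 2.16 CPM in control cells (log2 fold change 1.14, SE 0.10, adjusted p = 5.9e-06, edgeR).

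Of 19 initiation helpers and regulators, 2 rose and 9 fell, where 32.4% of all tested genes rose and 30.5% fell. The same shares stand beside the counts of the lists that follow. MKNK2, a kinase of eIF4E, averaged 405 ± 0.984 CPM in PRL cells and 118 ± 3.52 CPM in control cells (log2 fold change 1.78, SE 0.073, adjusted p = 2.8e-08, edgeR). PDCD4, an inhibitor of eIF4A, averaged 150.3 ± 2.09 CPM in PRL cells and 273 ± 16.2 CPM in control cells (log2 fold change -0.86, SE 0.075, adjusted p = 6.6e-06, edgeR), and the reinitiation factor MCTS1 averaged 43.5 ± 0.922 CPM in PRL cells and 88.4 ± 12.3 CPM in control cells (log2 fold change -1.02, SE 0.10, adjusted p = 1.5e-05, edgeR). Of 14 modifiers of elongation factors, 2 rose and 7 fell, led by the diphthamide enzyme DPH5 (log2 fold change -0.78, adjusted p = 2.7e-05), the hypusine enzyme DOHH (-0.91, adjusted p = 5.1e-05), which completes the modification of eIF5A, and EEF2KMT (-0.79, adjusted p = 1.3e-04), a methyltransferase of eEF2. Of 6 termination and recycling factors, 2 rose and 2 fell: the release factor GSPT1 stood at -0.39, adjusted p = 0.0013, the rescue factor PELO at 0.49, adjusted p = 0.0015 and the recycling ATPase ABCE1 at -0.37, adjusted p = 0.013. Of 9 mitochondrial translation factors, 1 rose (GFM2, 0.62, adjusted p = 0.0027) and 4 fell, among them MRRF (-0.36, adjusted p = 0.0018) and MTRF1L (-0.41, adjusted p = 0.0055).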

How the data were processed

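Total RNA of 6 T47D libraries (Trizol, Illumina protocols, per the labels) was analysed from 1 table the authors deposited for 17891 genes. The submitters' processing notes name HISAT2 2.1.0, Bowtie2 2.3.4.3 and GRCh38.p13. For the counting tool, annotation and strand use, nothing is given in the sources used here. Per the file headers, the authors deposited for each library the FPKM, TPM and estimated count of a gene. The deposited counts are expected counts: 44.1% to 45.9% of values were not whole (tolerance 0.004), and they were rounded here. The deposited FPKM is scaled by the authors to length and library size, and the deposited TPM to length and to a total of all transcripts. The authors' group means were not used.

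Samples were grouped by title. Counts summed to 16343163, 16646457 and 16211146 in the PRL libraries and 17402348, 16432849 and 16949521 in the control libraries. A count of 0 allows up to 3 counts, 0.165 to 0.203 CPM, for counting error only. Genes were tested with edgeR 4.0.16 in R 4.3.3 (robust quasi-likelihood fit with group as the only term, its filter on low counts, TMM), and p-values were adjusted (Benjamini-Hochberg) over the 14076 tested genes, with a threshold of 0.05. SE is the size of the log2 change over the square root of F. p-values measure the spread between these libraries. The tests were run on simulated counts with 200 genes changed, far fewer than were called here. That check does not bear on the scaling between libraries. Ratios of paired genes were tested by exact two-sided permutation. Alternatives were other scalings, filters, DESeq2 1.42.0, limma-voom (limma 3.58.1), limma on log2(FPKM + 1), log2(FPKM + 0.1) and log2(TPM + 1) for genes with a mean of at least 1, a replicate block, each library left out and, added after seeing the data, EIF3C and EIF3CL summed.

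Members, complexes and lists were chosen with earlier results of these data known. Values in every library are given for the called member with the largest rise and fall of each complex, for paired genes and for EEF1A1 and EEF2, and each list names its 3 genes with the smallest adjusted p. EIF3A was given in every library outside this rule, chosen after its values were seen. Gene positions and overlaps are from GENCODE 29 on GRCh38, starts from RefSeq on GRCh38.p14.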

Additional observations from a re-analysis of the deposited data

How the results depend on the processing

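Calls rest on 3 libraries a group. The 5 higher members were called under every alternative that kept EIF3C and EIF3CL apart; summed, that pair fell (-0.55), leaving 4 higher and 42 lower. Other scalings than library totals, filters and tools gave 40 to 44 lower and 5 higher members. Leaving out 1 library gave 39 to 43 lower and 5 or 6 higher members and medians of -0.55 to -0.41, and the difference in EIF4EBP2 over EIF4EBP1 ran from -0.15 to 0.11. Replicate numbers did not pair the libraries (correlations of deviations -0.12, 0.023 and -0.079); with the replicate block 40 members were lower and 5 higher, and EIF2A (adjusted p = 0.087) and EEF2K (0.063) were not called.

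Library totals raise all genes of PRL cells relative to TMM. With them the members' median was -0.21, 19 other translation genes rose and 14 fell, and 11 members changed sign, of which EEF2K (0.0056) and EIF2A (0.049) had been called. A further 9 members kept their sign but were no longer called: EIF1AX, EIF2B1, EIF2B2, EIF2S1, EIF2S3, EIF3D, EIF3E, EIF4A1 and EIF4E3. The same 9 were not called with FPKM at either pseudocount. With FPKM the median was -0.21 at either pseudocount, 9 members and 18 other translation genes rose and 13 others fell, and 10 members changed sign; those called on either scale were EIF1AD (0.19 and 0.20 for pseudocounts 1 and 0.1), EIF1B (0.19 and 0.19), EIF2A (0.21 and 0.22) and EEF2K (0.024 and 0.029). With TPM the median was -0.015, 16 members rose and 19 fell, 25 other translation genes rose and 7 fell, and 20 members changed sign; those called on either scale were EIF2A 0.41, EIF1AD 0.38, EIF1B 0.38, EIF4H 0.37, EIF4ENIF1 0.36, EIF2S2 0.36, EEF1A2 0.35, EIF4A3 0.33, EIF1 0.23, EEF2K 0.19, EIF3D 0.16, EIF2B1 0.15, EIF2B2 0.13, EIF2S1 0.090, EIF2S3 0.072, EIF1AX 0.039, EIF4A1 0.036 and EIF3E 0.033. The cause of these shifts was not tested. No outlier check was made, since groups of 3 are too small for it.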
